A study of Mus musculus with 9 samples.

Results

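The CC chemokines described here are 8 genes, *Ccl2*, *Ccl3*, *Ccl4*, *Ccl5*, *Ccl7*, *Ccl9*, *Ccl11* and *Ccl20*, chosen by name from 19938 genes with a probe set of their own on the array. They were chosen with earlier results of these data known. Each has 1 probe set that the annotation assigns to that gene alone, so all 8 were measured. The samples were 9 arrays of total RNA from mouse 3T3 cells, a line of embryonic fibroblasts. They fall into 3 groups of 3 arrays: wild-type fibroblasts left unstimulated, wild-type fibroblasts given 5 ng/ml TNF-α for 1 h, and Trap-80 knock-down fibroblasts given the same TNF-α. The wild-type cells express an irrelevant shRNA and the knock-down cells an shRNA against Trap-80, a subunit of the Mediator complex that is encoded by *Med17*. The study derived its knock-down cells as clonal lines and took 1 clone per hairpin forward. It names hairpin number 1 as that of its main-text experiments. The array labels themselves name neither clone nor hairpin. Unstimulated knock-down cells were not analysed here, so the knock-down was compared with wild type only after TNF-α, and a difference in the response cannot be told apart from one already present at rest.

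CC chemokines are small secreted proteins with a pair of adjacent cysteines near the amino terminus. They bind G protein-coupled receptors on leukocytes and direct their migration towards a site of injury or infection. Fibroblasts are a tissue source of several of them, and TNF-α drives such genes through NF-κB, which binds κB sites in their promoters and enhancers and contacts Mediator through its p65 subunit. The comparisons asked which CC chemokine transcripts TNF-α raised within 1 h, and which were at another level in stimulated cells with less Trap-80 mRNA.

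The values are log2 signals, so a difference of 1 is a 2-fold change. A difference passed the test where limma's adjusted p was under 0.05, after adjustment over the 23410 probe sets that have an annotated gene. *Med17* had log2 signals of 7.77 to 7.98 on the stimulated wild-type arrays and 6.17 to 6.35 on the knock-down arrays, a difference of -1.64 (SE 0.09, adjusted p = 4.77e-05 from limma). All 10 fibroblast markers (such as *Col1a1* and *Vim*) had a mean signal above 5.02, the median over the tested probe sets, as did 2 of 10 macrophage, 0 of 5 T cell and 0 of 6 endothelial markers. The mean of the macrophage markers spanned 3.78 to 3.84 in unstimulated wild-type, 3.77 to 3.83 in stimulated wild-type and 3.68 to 3.79 in knock-down arrays. *Cd68* and *Cd14* were the macrophage markers above the median, at means of 5.47 and 5.46, while *Adgre1* had a mean of 3.11 and *Ptprc*, which all leukocytes express, one of 3.22. In RNA from whole cultures, fewer cells of a type and less RNA per cell cannot be told apart.

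TNF-α raised *Ccl2*, *Ccl7* and *Ccl20* in wild-type cells, and it did so strongly: they had the 5th, 6th and 4th largest differences of the 19938 genes. *Ccl2* (MCP-1) and *Ccl7* (MCP-3) attract monocytes, and *Ccl20* attracts lymphocytes and dendritic cells that carry the receptor CCR6. All 8 CC chemokines had a mean difference above 0, with a median of 1.30 against -0.02 over all genes. Of the 8, 3 passed the test as higher and none as lower, where 0.111% of the tested probe sets passed as higher. The arrays did not overlap, with stimulated above unstimulated, for 5 of the 8 and for 4.01% of the tested probe sets. The 8 were picked with earlier results known, so these contrasts with all genes partly follow from the choice. Of the 11 other CC ligands measured none passed, and their median difference was 0.07.

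*Ccl2* had log2 signals of 7.77, 7.91 and 7.07 on unstimulated arrays 1, 2 and 3, and of 10.72, 10.70 and 10.98 on the stimulated wild-type arrays. The lowest stimulated array thus lay far above the highest unstimulated one, and the difference was 3.22 (SE 0.20, 9.29-fold, adjusted p = 0.000247). *Ccl7* went from 7.75, 7.84 and 7.47 to 10.26, 10.20 and 10.56. Its arrays were as clearly apart, and the difference was 2.65 (SE 0.13, 6.29-fold, adjusted p = 7.81e-05). *Ccl20* went from 4.62, 4.13 and 3.91, all below the median probe set, to 7.40, 7.32 and 8.53. Its difference was 3.53 (SE 0.36, 95% interval 2.71 to 4.35, adjusted p = 0.00837). Since the unstimulated signals of *Ccl20* are dim, the size of this rise is less certain than its direction. The test was missed without unstimulated array 2 (adjusted p = 0.0686) or 3 (adjusted p = 0.0522), whereas *Ccl2* and *Ccl7* passed without any 1 of the 9 arrays (adjusted p up to 0.00359 and 0.00163).

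*Ccl5* (RANTES), which attracts T cells and monocytes, and *Ccl9*, a chemokine for myeloid cells, had all 3 stimulated arrays above all 3 unstimulated ones but missed the test. *Ccl5* had signals of 7.34, 7.46 and 6.88 without TNF-α and 8.20, 7.88 and 8.82 with it, a difference of 1.07 (SE 0.24, 95% interval 0.54 to 1.61, unadjusted p = 0.0014 and adjusted p = 0.301 from limma). *Ccl9* had signals of 4.66, 4.45 and 5.38 without and of 5.76, 5.77 and 7.53 with TNF-α. Stimulated array 3 of *Ccl9* stood well above the other two, and the difference was 1.52 (SE 0.45, 95% interval 0.51 to 2.53, adjusted p = 0.586). Without that array it was 0.93. Array 3 was also the highest stimulated wild-type array for each of *Ccl2*, *Ccl5*, *Ccl7* and *Ccl20*.

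*Ccl3* (MIP-1α), *Ccl4* (MIP-1β) and *Ccl11* (eotaxin) stayed at the dim end of the array under all conditions. The first pair attracts macrophages and natural killer cells, and eotaxin attracts eosinophils. On the 6 wild-type arrays their signals ranged from 3.17 to 3.58 for *Ccl3*, from 3.22 to 3.72 for *Ccl4* and for *Ccl11* from 3.83 to 4.02 on all but stimulated array 2, its highest, with overlapping groups. The TNF-α differences were 0.12, 0.11 and 0.13 (SE 0.11, 0.11 and 0.16; adjusted p = 0.818, 0.837 and 0.862), with upper 95% limits of 0.37, 0.37 and 0.50. *Ccl11* had the identical deposited value of 4.02 on 5 of the 9 arrays and *Ccl4* had 3.50 on 3 of them. Without stimulated wild-type array 2 the *Ccl11* difference was -0.09.

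**Figure D1:**
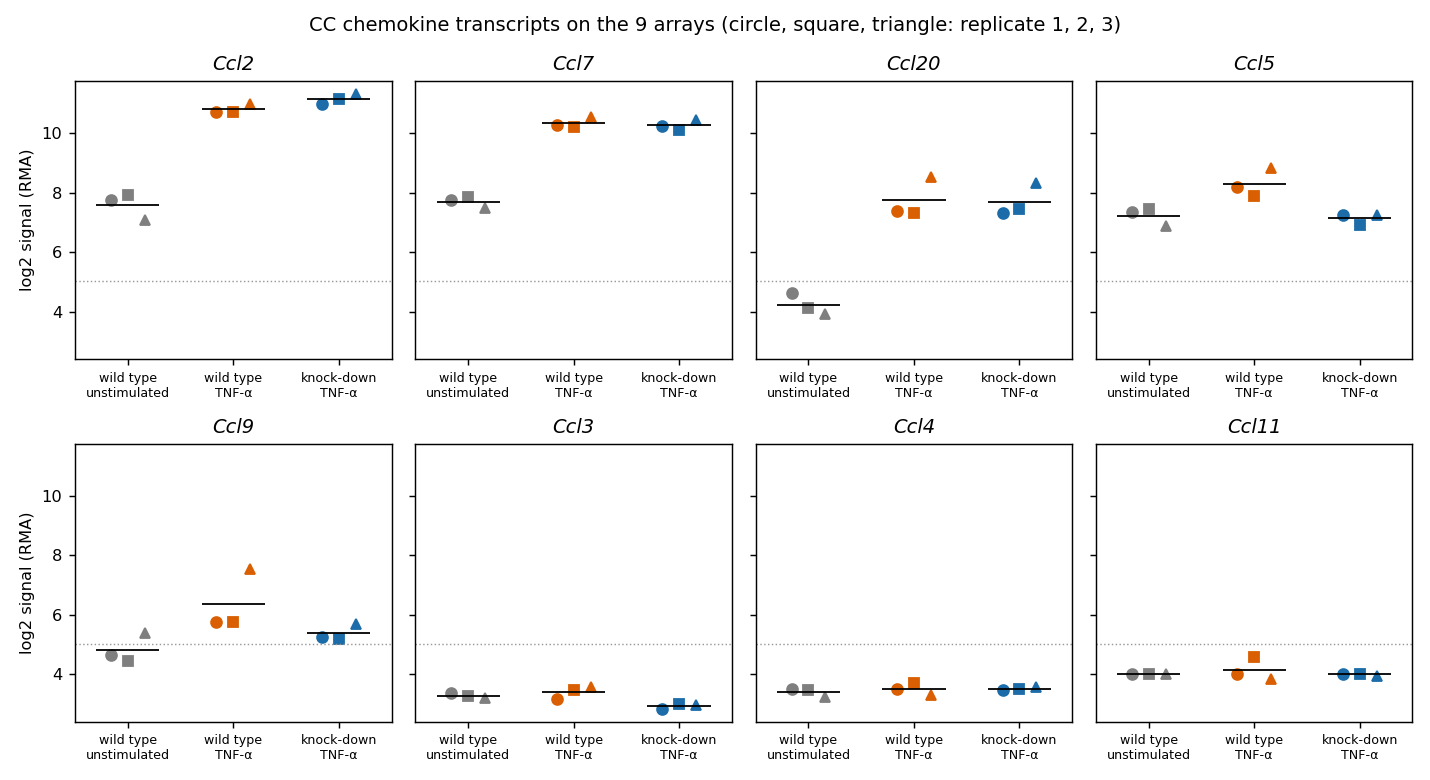
Each panel is 1 CC chemokine, with its deposited log2 signal (vertical axis) on the 9 arrays by group (horizontal axis). Points are arrays, black lines are group means and the dotted line is 5.02, the median of all tested probe sets. *Ccl2*, *Ccl7* and *Ccl20* are high in both stimulated groups, *Ccl5* in the knock-down overlaps its unstimulated wild-type level, and *Ccl3*, *Ccl4* and *Ccl11* lie below the line throughout.

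The RefSeq promoter table holds a window for 3 of the 8 genes, *Ccl20*, *Ccl9* and *Ccl3*. These 3 were set by what the table holds and were not chosen by their response. *Ccl20* was strongly induced, *Ccl9* was moderately higher with an uncertain test, and *Ccl3* was dim with little difference. The 250 bases upstream of their start sites are shown. They lie at chr1:83116516-83116765 (plus strand) for *Ccl20*, chr11:83578637-83578886 (minus strand) for *Ccl9* and chr11:83649379-83649628 (minus strand) for *Ccl3*, all in build GRCm38.p6 and read 5′ to 3′ along the gene. Capitals mark matches, on either strand, to the κB consensus, to the AP-1 motif TGANTCA and to the TATA box core TATAA. The κB consensus searched was GGGRNNYYCC, where R is A or G, Y is C or T and N is any base.
Ccl20: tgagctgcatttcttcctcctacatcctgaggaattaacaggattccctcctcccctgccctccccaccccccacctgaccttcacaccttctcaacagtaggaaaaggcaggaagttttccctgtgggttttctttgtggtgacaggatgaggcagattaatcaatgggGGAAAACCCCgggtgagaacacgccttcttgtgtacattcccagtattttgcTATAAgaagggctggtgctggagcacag
Ccl9: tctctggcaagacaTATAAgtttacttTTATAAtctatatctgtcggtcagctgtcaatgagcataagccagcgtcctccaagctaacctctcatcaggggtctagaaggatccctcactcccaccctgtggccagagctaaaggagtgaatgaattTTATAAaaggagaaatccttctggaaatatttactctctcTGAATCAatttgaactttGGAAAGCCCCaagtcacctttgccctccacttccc
Ccl3: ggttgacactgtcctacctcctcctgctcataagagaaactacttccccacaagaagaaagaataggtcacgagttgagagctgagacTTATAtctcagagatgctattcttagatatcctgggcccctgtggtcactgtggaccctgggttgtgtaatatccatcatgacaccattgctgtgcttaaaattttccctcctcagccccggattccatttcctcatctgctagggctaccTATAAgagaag

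Upstream of *Ccl20* the κB consensus matched once, from base -80 to -71 (counted back from the start site), and TATAA once, at -28 to -24, a usual place for a TATA box. Upstream of *Ccl9* the κB consensus matched at -35 to -26 and the AP-1 motif at -53 to -47. *Ccl9* had 5 matches to TATAA, of which those at -223 to -218 and at -93 to -88 overlap each other on opposite strands. *Ccl3* had no match to this κB consensus in this window and 2 matches to TATAA, at -162 to -158 and -11 to -7. The GC box GGGCGG matched in none of the 3 windows. Among all 32851 windows of this length, 7.25% held the κB consensus, 6.75% the AP-1 motif, 22.8% TATAA and 32.7% the GC box. A match is a run of letters and not a site shown to be bound, and κB sites farther from a start site lie outside these windows. Sites within the windows that depart from the κB consensus were not searched for.

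**Figure D2:**
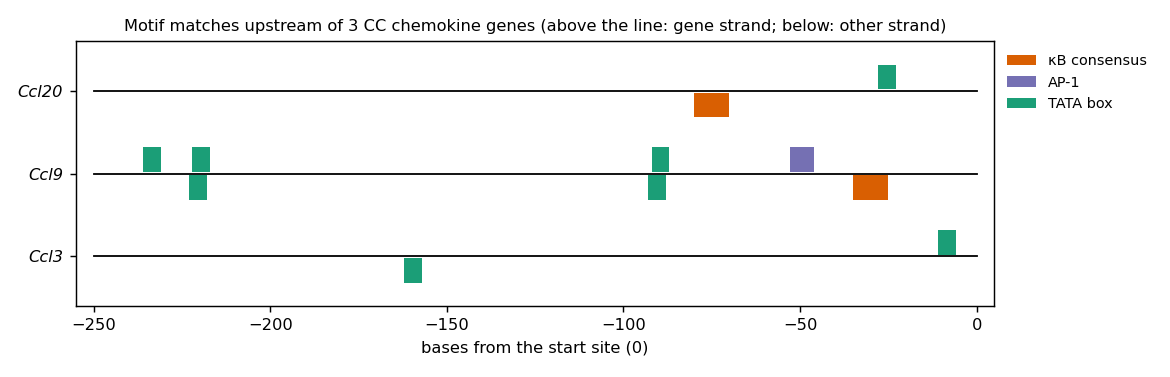
Motif matches in the 250 bases upstream of *Ccl20*, *Ccl9* and *Ccl3*, by distance in bases from the start site (horizontal axis), with gene-strand matches above each line and other-strand matches below it. The κB consensus matches at -80 in *Ccl20* and at -35 in *Ccl9*, and not in the *Ccl3* window.

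After TNF-α, *Ccl5* was lower in Trap-80 knock-down cells than in wild type, whereas *Ccl2*, *Ccl7* and *Ccl20* missed the test of that difference and again lay far above the unstimulated wild-type level. Of the 8 CC chemokines, *Ccl5* and *Ccl3* passed as lower in the knock-down and none passed as higher, where 2.6% of the tested probe sets passed as lower and 3.36% as higher. The arrays did not overlap, with knock-down below wild type, for *Ccl3*, *Ccl5* and *Ccl9*, against 10% of the tested probe sets. The median of the 8 differences was -0.11, against -0.02 over all genes. Among fibroblast markers in the same comparison, *Pdgfra* differed by -1.89 and *Dcn* by -2.27, while *Thy1* differed by 2.09 and *S100a4* by 0.55 (adjusted p = 9.52e-05, 0.00137, 0.000479 and 0.0106 from limma). The mean of the 10 fibroblast markers spanned 9.82 to 10.16 in stimulated wild-type and 9.65 to 9.87 in knock-down arrays. The part of this difference between the cells in the chemokine values was not tested. Since the knock-down cells came from a clonal line, traits of the clone and loss of Trap-80 cannot be told apart here. The limma p-values measure the spread between arrays of a group and not that between knock-down lines.

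*Ccl5* had log2 signals of 7.26, 6.90 and 7.25 on knock-down arrays 1, 2 and 3, whereas no stimulated wild-type array was under 7.88. The difference was -1.16 (SE 0.24, 95% interval -1.70 to -0.63, 2.24-fold lower, adjusted p = 0.0218). The knock-down arrays overlapped the unstimulated wild-type arrays (6.88 to 7.46), and the difference between these groups was -0.09 (95% interval -0.63 to 0.45, adjusted p = 0.879). Both comparisons share the knock-down arrays, so they are not independent of each other. The knock-down call of *Ccl5* is not firm: the adjusted p was 0.0652 without stimulated wild-type array 1 and 0.0593, 0.0882 and 0.0593 without knock-down array 1, 2 or 3, and the smallest difference without any array was -0.90.

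*Ccl9* had knock-down signals of 5.26, 5.19 and 5.68. The stimulated wild-type arrays began at 5.76, so the highest knock-down array was only just under them. The difference was -0.98 (SE 0.45, 95% interval -1.98 to 0.03, adjusted p = 0.305). Between arrays of the same number it was -0.50, -0.58 and -1.86, and with the replicate number as a block *Ccl9* passed (adjusted p = 0.0439). Without stimulated wild-type array 3 the difference was -0.39. *Ccl9* in knock-down cells lay 0.54 above unstimulated wild type (SE 0.45, adjusted p = 0.56), with overlapping arrays.

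*Ccl3* had knock-down signals of 2.83, 3.01 and 2.98, against 3.17, 3.46 and 3.58 in stimulated wild-type cells. The difference was -0.46 (SE 0.11, 95% interval -0.71 to -0.21, 1.38-fold lower, adjusted p = 0.0418). Every one of these signals lies well below the median probe set, and the mean of *Ccl3* over all arrays stood at percentile 22.9 of the tested probe sets. The test was missed without unstimulated array 1 or 2, stimulated wild-type array 2 or 3, or any 1 of the knock-down arrays (adjusted p up to 0.138), and after centring each array on its median (adjusted p = 0.072).

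*Ccl2* had knock-down signals of 10.97, 11.16 and 11.33, which overlapped the stimulated wild-type arrays only at their top. The difference was 0.35 (SE 0.20, 95% interval -0.10 to 0.81, adjusted p = 0.43). *Ccl7* had signals of 10.25, 10.12 and 10.44 and a difference of -0.07 (SE 0.13, 95% interval -0.37 to 0.23, adjusted p = 0.854). *Ccl20* had signals of 7.32, 7.45 and 8.33 and a difference of -0.04 (SE 0.36, adjusted p = 0.975). Its 95% interval, from -0.86 to 0.77, was the widest of these 3. *Ccl4* (difference 0.01, 95% interval -0.25 to 0.27) and *Ccl11* (difference -0.15, 95% interval -0.52 to 0.21) had overlapping arrays and missed the test (adjusted p = 0.984 and 0.711). The sign of the *Ccl20*, *Ccl7*, *Ccl4* and *Ccl11* differences turned when single arrays were left out, and that of *Ccl20* also after centring.

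Set against unstimulated wild-type cells, stimulated knock-down cells had higher *Ccl2* by 3.57 (SE 0.20, adjusted p = 2.67e-05), higher *Ccl7* by 2.58 (SE 0.13, adjusted p = 1.89e-05) and higher *Ccl20* by 3.48 (SE 0.36, adjusted p = 0.000722). These 3 of the 8 passed as higher, against 3.64% of the tested probe sets, and none passed as lower. They are the same 3 that passed in wild-type cells, a comparison that shares the unstimulated arrays. For each of them the level rose from unstimulated wild type to both stimulated groups, and the difference between those groups missed the test.

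**Figure D3:**
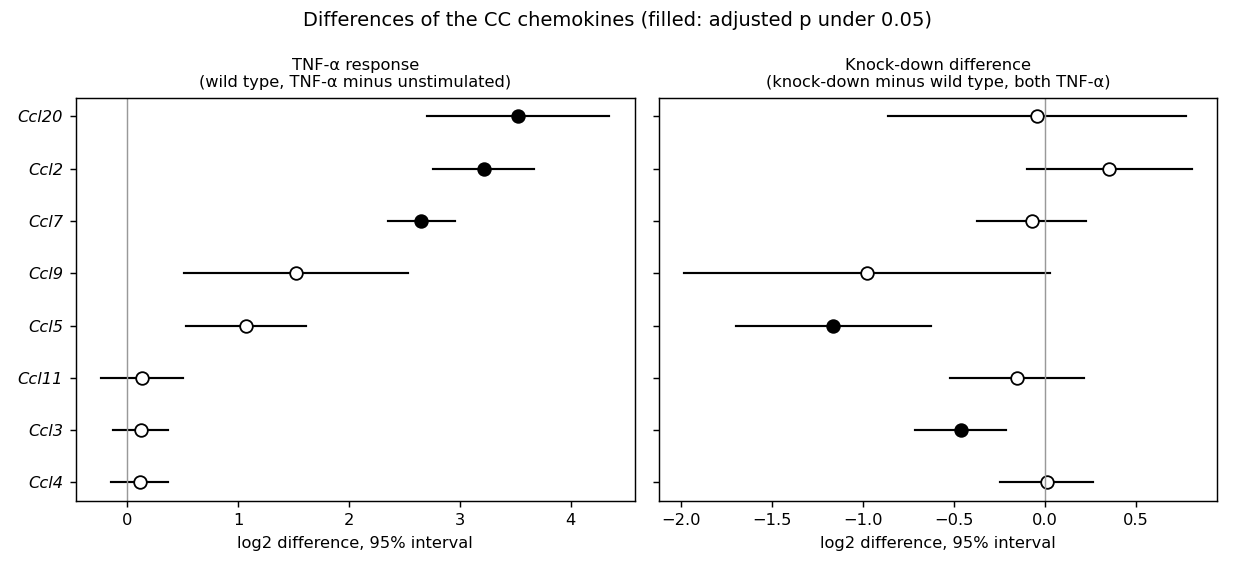
Log2 differences (horizontal axes) of the 8 CC chemokines (vertical axis) for TNF-α in wild-type cells (left) and for the knock-down after TNF-α (right), with 95% intervals from limma and filled points where the adjusted p was under 0.05. *Ccl20*, *Ccl2* and *Ccl7* are filled on the left with knock-down intervals that span 0, and *Ccl5* and *Ccl3* are filled on the right.

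Whether 2 chemokines changed unequally was asked within each array, by subtracting the signal of *Ccl2* from that of each of the other 7. After TNF-α, *Ccl5* minus *Ccl2* was -2.82 to -2.16 in wild-type and -4.26 to -3.72 in knock-down arrays, a change of -1.52 (SE 0.25). The same quantity changed by -1.33 (SE 0.51) for *Ccl9* and by -0.43 (SE 0.09) for *Ccl7*. With the dim *Ccl3*, these are the 4 of the 7 for which the wild-type and knock-down arrays did not overlap, which gives p = 0.1 each in the exact permutation test, two-sided (0.175 after adjustment over the 7 pairs), and 3 arrays against 3 can give no smaller p than 0.1. For *Ccl20* the change was -0.40 (SE 0.38, exact permutation p = 0.4), with overlapping arrays. Between arrays of the same number, an alternative chosen after seeing the data, it was -0.32, -0.33 and -0.55 for *Ccl20*, and all 7 genes had a change below 0 in each of the 3 pairs (exact sign-flip permutation p = 0.25 each, the smallest that 3 pairs can give). Every one of these changes also holds the 0.35 by which *Ccl2* itself differed, a difference that missed the test, and *Ccl7* on its own differed by -0.07. This is a comparison of changes, and the signals of different probe sets say nothing of which chemokine was more abundant.

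On chromosome 11, RefSeq places 11 CC ligand genes in 2 runs with no other protein-coding gene between the members of a run. The first run holds, in order, *Ccl2*, *Ccl7*, *Ccl11*, *Ccl12*, *Ccl8* and *Ccl1*, and the second *Ccl5*, *Ccl9*, *Ccl6*, *Ccl3* and *Ccl4*, while *Ccl20* lies apart on chromosome 1. In each run, the larger TNF-α differences were those of the first pair: *Ccl2* and *Ccl7* in one and *Ccl5* and *Ccl9* in the other. Of these, *Ccl5* and *Ccl9* missed the TNF-α test (adjusted p = 0.301 and 0.586 from limma). The remaining genes of the first run differed by -0.19 to 0.13 after TNF-α and those of the second by -0.10 to 0.12. All of these remaining genes were dim, with mean signals from 2.75 (*Ccl8*) to 4.05 (*Ccl11*), below the median probe set. Small differences at such signals do not show that these genes failed to respond. The knock-down differences of the second run were, in order, -1.16 for *Ccl5*, -0.98 for *Ccl9*, 0.07 for *Ccl6*, -0.46 for *Ccl3* and 0.01 for *Ccl4*. Here *Ccl9* missed the test, *Ccl5* lost its call in 6 of 15 alternatives, and *Ccl3* is dim and lost its call in 10 of 14. In the first run the knock-down differences ranged from -0.15 (*Ccl11*) to 0.35 (*Ccl2*).

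**Figure D4:**
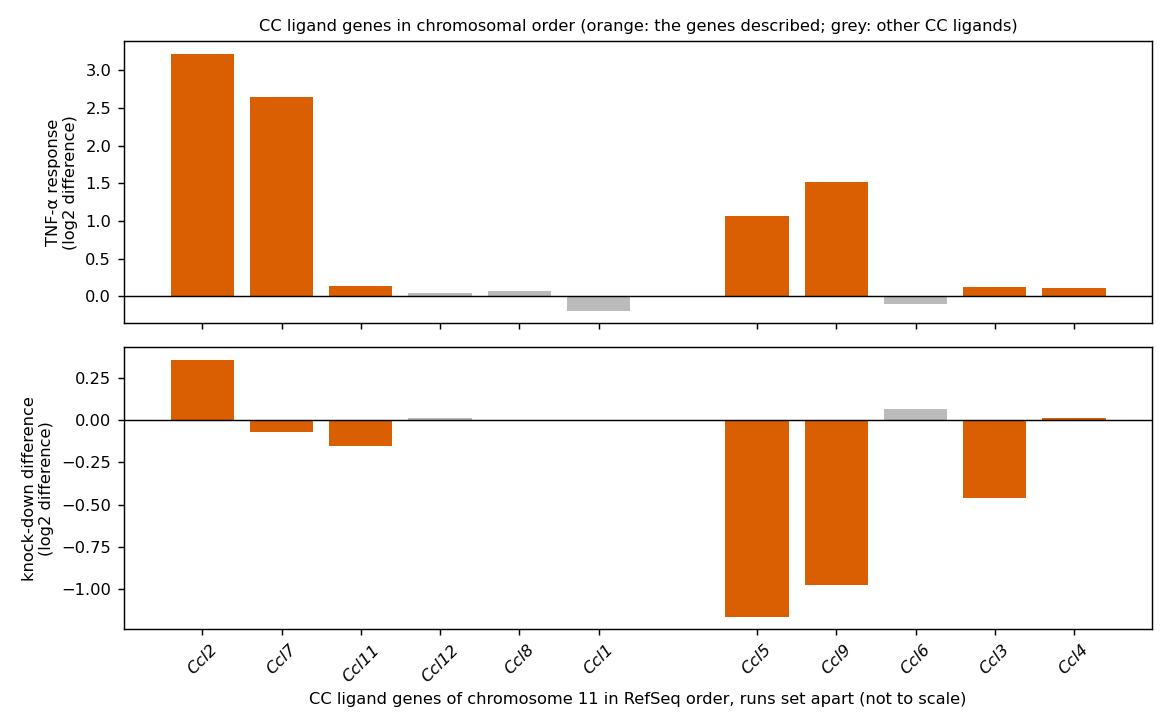
Log2 differences (vertical axes) of the 11 CC ligand genes of chromosome 11, in chromosomal order (horizontal axis, not to scale), for TNF-α in wild-type cells (top) and for the knock-down after TNF-α (bottom). *Ccl2* and *Ccl7* stand out in the top panel of the first run, and *Ccl5*, *Ccl9* and *Ccl3* have the negative bars of the second run in the lower panel.

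Other genes of the chemokine system were mostly dim. Of 13 other CC ligands 11 were measured, each by its brightest probe set. None passed the TNF-α test, with differences of -0.19 to 0.32 and a median of 0.07. *Ccl17*, which attracts T helper cells through CCR4, had signals of 6.05 to 6.07 unstimulated, 6.26 to 6.44 after TNF-α and 6.66 to 7.10 in the knock-down. It rose in the knock-down by 0.53 (SE 0.11, adjusted p = 0.022 from limma). By these probe sets it was the only one of the 11 to pass there. *Ccl26* (TNF-α difference 0.24, unadjusted p = 0.0591) and *Ccl24* (knock-down difference -0.22, unadjusted p = 0.0849) came next by p. *Ccl25* differed by -0.05 in the knock-down by its brightest probe set. Its dimmer probe set had signals of 5.67 to 5.83 in stimulated wild-type and 6.32 to 6.48 in knock-down arrays, without overlap. The test of that probe set is not given here.

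None of the 9 measured CC receptors passed either test, and the mean signal of each was below the median probe set. *Ccr9*, *Ccr7* and *Ccr8* had the smallest p-values, with TNF-α differences of 0.22, 0.29 and 0.17 (adjusted p = 0.688, 0.694 and 0.727) and knock-down differences of -0.03, -0.10 and -0.26 (adjusted p = 0.905, 0.739 and 0.167). None of the 4 atypical receptors, which bind chemokines without signalling through G proteins, passed either test. *Ccrl2* had the largest TNF-α difference among them, at 0.55 (SE 0.23, adjusted p = 0.695), from 3.60 to 3.62 unstimulated to 3.87 to 4.59 after TNF-α.

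Of 16 ligands of the CXC, CX3C and XC families, 3 passed as higher after TNF-α, where 0.111% of the tested probe sets did. These were *Cxcl10*, *Cxcl1* and *Cxcl5*, by 4.02, 1.59 and 1.02 (adjusted p = 0.00488, 0.00306 and 0.0495 from limma), and the median difference was 0.32. *Cxcl2* and *Cx3cl1* rose by 1.57 and 1.39 without overlap of the arrays but missed the test (adjusted p = 0.129 and 0.0544 from limma). Of the 16, 8 were higher at an unadjusted p under 0.05 and none lower. In the knock-down 5 of the 16 passed as lower and none as higher, where 2.6% of the tested probe sets passed as lower. Their log2 differences were -3.47 for *Ppbp*, -2.08 for *Cxcl12*, -1.53 for *Cxcl10*, -0.63 for *Cxcl5* and -0.51 for *Cxcl9* (adjusted p = 0.000185, 0.000355, 0.0467, 0.0352 and 0.045 from limma). *Cxcl9* is dim, with a mean signal of 3.75. Whether these calls hold without single arrays is not given here. The median knock-down difference of the 16 was -0.23. The difference between 5 of 16 here and 2 of 8 among the CC chemokines was not tested.

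Upstream of these genes, 11 of 14 components from the TNF receptor to NF-κB were measured. *Nfkbia* and *Nfkbie*, which encode inhibitors of NF-κB that it induces itself, rose after TNF-α by 2.56 and 2.38 (adjusted p = 7.81e-05 and 0.0152). In the knock-down, *Map3k7*, the kinase TAK1, rose by 0.51 (adjusted p = 0.0068 from limma). None of the 11 passed as lower in this comparison by its brightest probe set. *Rela*, which encodes p65, differed by -0.05 (adjusted p = 0.887) and the TNF receptor *Tnfrsf1a* by -0.38 (adjusted p = 0.123), the latter without overlap of the arrays. Against unstimulated wild type, *Tnfrsf1a* in knock-down cells passed as lower, by -0.57 (adjusted p = 0.0208 from limma). Against stimulated wild type, *Birc2* differed by -0.30 (adjusted p = 0.52) by its brightest probe set. Its dimmer probe set had signals of 5.98 to 6.19 in stimulated wild-type and 5.38 to 5.75 in knock-down arrays, without overlap. The test of that probe set is not given here. Of 7 proteases that can trim CC chemokines none passed the TNF-α test, and *Mmp9* fell in the knock-down, with a difference of -0.72 (adjusted p = 0.0261), from signals of 4.71 to 5.13 to signals of 3.93 to 4.50.

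**Figure D5:**
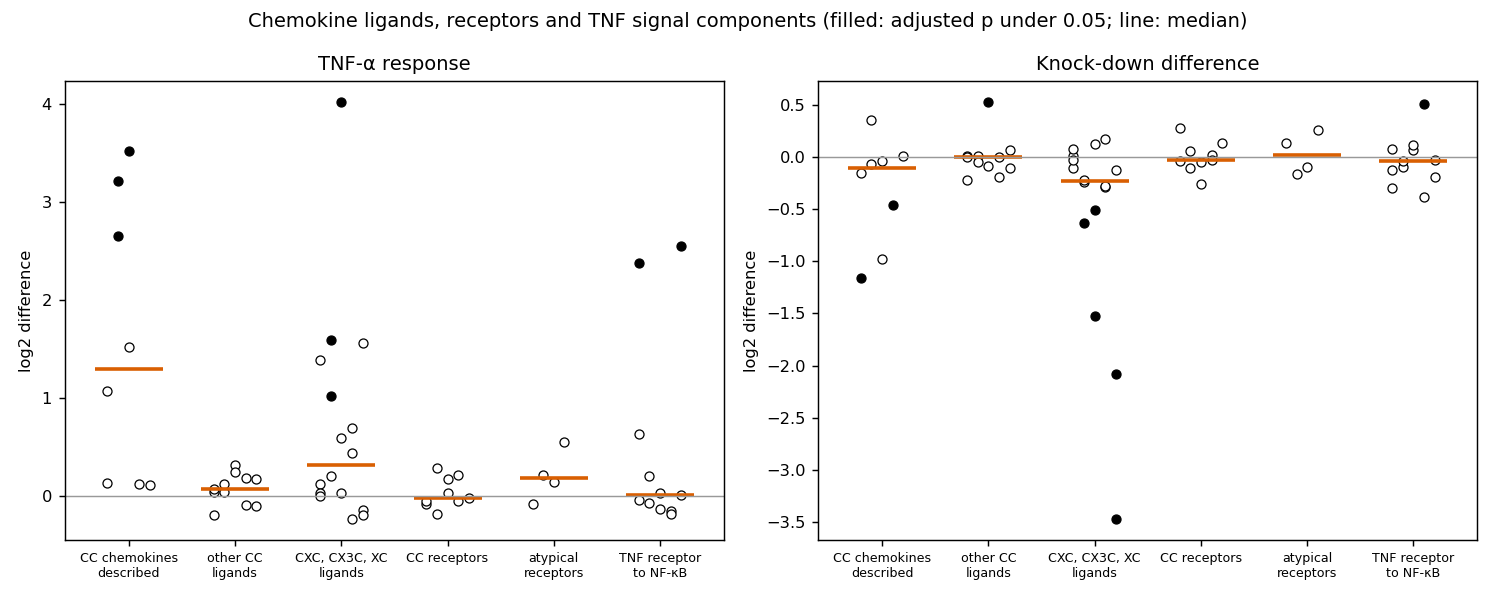
Log2 differences (vertical axes) of the genes of 6 groups (horizontal axes) for TNF-α in wild-type cells (left) and for the knock-down after TNF-α (right). Points are genes, each by its brightest probe set and filled where the adjusted p was under 0.05, and lines are medians. The CC chemokines described have a TNF-α median of 1.30 and a knock-down median of -0.11, and the CC receptors lie near 0 in both panels.

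For each CC chemokine that passed either test, the genes with the most similar course over the 9 arrays were found by Pearson's r among 9957 genes with signals above the median. The 9 arrays form 3 groups, so an r mainly reflects the group means and is given as a description. *Ccl2* was most like *Ccl7* (r = 0.990), *Nfkbia* (r = 0.986) and *Klf10* (r = 0.985). *Ccl7* was most like *Nfkbia* (r = 0.996), *Junb* (r = 0.995) and *Ccl2*, and *Ccl20* was most like *Csf1* (r = 0.993), *Nfkbia* (r = 0.989) and *Klf10* (r = 0.989). *Ccl5* followed other genes, *Sod2* (r = 0.968), a mitochondrial superoxide dismutase, *Mafg* (r = 0.959) and *Aebp2* (r = 0.948). *Ccl3*, with its dim signal, was most like *Rcan1* (r = 0.939), *Nxt2* (r = 0.936) and *Smpd3* (r = 0.918).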

How the data were processed

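Total RNA was hybridised to Affymetrix Mouse Gene 1.0 ST arrays, 1 per sample. The authors deposited log2 values per probe set from RMA, which corrects background, normalizes arrays to one another and summarises probes. No source used here names the RMA version. No further normalization was applied to the values, whose medians per array ran from 4.47 to 4.59. Of 35557 probe sets, 21789 list 1 gene symbol in the platform annotation, 1621 list several and 12147 are unnamed here. The 23410 with a gene were tested, without a filter on dim ones.

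One limma model (3.58.1, R 4.3.3) of the 3 groups gave 3 differences, with Benjamini-Hochberg adjustment over the 23410 probe sets. It was first tested on simulated data. The number of arrays limits the precision: the median standard error of a difference was 0.10. The series' design text describes the replicates as independent cultures. Members, gene lists and the rule for named genes (all members, called or smallest-p genes of each list, and the 3 most similar genes) were chosen with earlier results of these data known. Of 104 listed genes 97 were measured.

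Arrays with the same number shared part of their deviation from the group means, with correlations of 0.298, 0.110 and 0.403 between unstimulated and stimulated wild type and of 0.147, 0.274 and 0.465 between stimulated wild type and knock-down. Between unstimulated wild type and knock-down they were 0.151, 0.0022 and 0.221, with replicate 2 near 0. The number was also fitted as a block, as an alternative; the labels do not say what it marks. Other alternatives were testing all probe sets or only those above the median, only the 6 arrays compared, median centring, an intensity trend with a robust prior, and leaving out each array. Promoter windows are from RefSeq (GRCm38.p6). Gene order was also taken from RefSeq, since no source used here names the build of the platform annotation.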

Additional observations from a re-analysis of the deposited data

How the results depend on the processing

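The number of CC chemokines that passed for TNF-α (3) was 2 to 3 and that for stimulated knock-down against unstimulated wild type stayed at 3, under all 15 alternatives. For the knock-down difference (2) it was 3 with the replicate number as a block, 1 among probe sets above the median, where *Ccl3*, *Ccl4* and *Ccl11* were not tested, 1 after centring, 0 over all deposited probe sets, 0 with only the 6 arrays compared, and 0 to 2 when single arrays were left out. Over all deposited probe sets *Ccl5* and *Ccl3* had adjusted p = 0.0577 and 0.091, with the same differences but more probe sets adjusted for. With only the 6 arrays compared they had 0.0563 and 0.0946, and *Ccl20* missed the TNF-α test (0.0766), with fewer arrays to estimate the spread.

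Of 351 values of single genes under alternatives, 331 stayed on their side of the threshold, 19 lost the call and 1, *Ccl9* with the block, gained it. No called difference changed sign. The block changed no other call of a CC chemokine. Over all probe sets it raised the number called from 27 to 55 for TNF-α and from 1395 to 2108 for the knock-down. For TNF-α that number was 11 over all deposited probe sets, 41 above the median, 9 with only the 6 arrays compared and 9 to 23 without single arrays; for the knock-down it was 839 over all deposited probe sets and 738 to 1596 without single arrays; for stimulated knock-down against unstimulated wild type (1932) it was 1147 to 1944 without single arrays. The alternative of the next brightest probe set gave no value, since each gene has 1 probe set.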
